A study of Mus musculus with 28 samples.

Results

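The effect of losing NOX2 on dendritic cells of the spleen was read here without any angiotensin II, by setting vehicle-treated knockout cells against vehicle-treated wild-type cells. The arrays were chosen by their titles, which placed 3 knockout arrays and 7 wild-type arrays in the comparison, 10 of the 28 arrays of the study. The study asked how oxidative stress affects the expression profile of dendritic cells. The knockout group (KO) held cells of 3-month-old mice lacking gp91phox, given vehicle and titled sham, with 3 biological replicates. The wild-type group (WT) held cells of 3-month-old C57BL/6J mice, likewise given vehicle and titled sham, with 7 biological replicates, of which 6 entered the comparison. For a second reading of the genotype, 4 KO arrays and 4 WT arrays of the same age treated with angiotensin II (Ang II) were used. The titles of these KO arrays read Ang I, while their descriptions read Ang II, which was followed here. Descriptions speak of treated cells and titles of sham, so whether mice or isolated cells were treated is not settled. The knockout allele, the backcross of the KO mice, the dose and the gate used to isolate the cells are not given in the sources used here, nor whether replicates were single or pooled mice. Each array carried RNA of a whole cell preparation, so that fewer cells of a type and less RNA per cell cannot be told apart.

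NOX2, also called gp91phox, is the electron-carrying membrane subunit of the oxidase that phagocytes assemble, and Cybb is its gene. It pairs with p22phox in the membrane and, once the cytosolic subunits and Rac join, passes electrons to oxygen to form superoxide. Phagocytes use it to kill microbes. In dendritic cells it is known for acting in the phagosome, where it slows the breakdown of antigen that is to be presented.

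All values are log2 levels on the RMA scale, on which a difference of 1 is 2-fold, and each difference is KO minus WT. Of 19938 genes with a probe set of their own, the 10452 that passed 5 on at least 3 arrays were tested. A gene is called here when its adjusted p lies below 0.05 in limma's moderated test, with Benjamini-Hochberg adjustment over the 10452 genes. The array labelled WT vehicle replicate 2 was left out, since its Cybb level of 6.34 lay below every KO vehicle array, while its Stx8 level of 6.61 lay with WT. It also had the narrowest spread of values of any array, with an interquartile range of 1.92, and a mean correlation with other arrays of 0.744. Its Y-linked genes were low as well, with Kdm5d at 4.77 and Eif2s3y at 4.82, against 6.67 to 7.12 and 6.84 to 7.96 on the other WT vehicle arrays. Whether it is a failed or a mislabelled array was not tested. Low identifiers and the lack of a gene name marked 998 probe sets as likely controls, whose first principal component held 30.2% of their variance. The 2 widest gaps along it, read from these data and from no label, parted the remaining 27 arrays into 3 sets. Set 1 held all 7 KO arrays with WT vehicle replicates 1 and 3 and WT Ang II replicates 1 and 2, and set 2 held WT vehicle replicates 4 to 7, so genotype and set overlap in part. Results are therefore also given within set 1, where 3 KO vehicle arrays meet 2 WT vehicle arrays in a fit of the 11 arrays of that set.

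Several genes that define dendritic cells were bright in both genotypes, but Zbtb46 was not. It read 5.41 to 5.77 on KO arrays and 5.07 to 5.74 on WT arrays, near the filter of 5. Itgax, which encodes CD11c, read 8.15 to 8.56 on KO arrays and 7.85 to 8.94 on WT arrays. Cd74, the invariant chain of MHC class II, read 11.15 to 11.40 on KO arrays and 11.11 to 11.77 on WT arrays. It lay above 99.7% of the 19938 genes, tested or not, on every array. Genes of other cells were bright too, among them the B cell receptor gene Cd79b at 9.89 to 10.26 on KO arrays and 9.22 to 9.99 on WT arrays, and the neutrophil gene S100a8 at 9.29 to 12.05 on KO arrays and 7.37 to 11.42 on WT arrays. Over the whole B cell list 9 of 13 tested markers lay below 0, with a median difference of -0.33 (-0.04 within set 1) and a mean level of 7.91 to 8.25 on the KO arrays and 8.07 to 8.72 on the WT arrays. Below 0 lay 13 of 14 type 1, 8 of 12 type 2, 8 of 10 plasmacytoid and 8 of 10 shared dendritic cell markers. Their medians were -0.32, -0.16, -0.34 and -0.06, in that order, beside -0.10 for all tested genes. Within set 1 these were 0.05, 0.16, 0.20 and 0.25, beside 0.03.

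Cybb, the targeted gene on chromosome X, was lower in KO cells but still above the level filter. It read 7.06, 6.93 and 6.46 on the 3 KO arrays, against 8.51 to 9.57 (median 9.25) on the 6 WT arrays. The groups did not overlap, and the gap between them was wider than the spread within either. Group means were 6.82 ± 0.31 (SD, n = 3) in KO arrays and 9.14 ± 0.37 (SD, n = 6) in WT arrays, so that Cybb fell by 2.32 (SE 0.23, adjusted p = 1.98e-07), a 5.01-fold difference. With the doubted array among the WT arrays the difference was -1.92 and was no longer called (adjusted p = 0.207). Because Cybb decided which array was left out, its own difference is a check of the labels. Where the Cybb probes lie relative to the disrupted part of the gene is not given in the sources used here.

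Stx8 was likewise lower on every KO array than on any WT array. It encodes syntaxin 8, a SNARE that acts in fusion of late endosomes, and lies on chromosome 11. Its level was 3.46, 3.84 and 3.44 on the KO arrays, against 6.04 to 6.52 (median 6.20) on the WT arrays. No KO array came near a WT array, and the WT arrays lay close to each other. Means were 3.58 ± 0.22 (SD, n = 3) in KO arrays and 6.24 ± 0.17 (SD, n = 6) in WT arrays, and Stx8 fell by 2.66 (SE 0.15, adjusted p = 5.15e-13), or 6.32-fold. The KO level lay below the filter of 5, and with 5 in its place the difference was 2.36-fold. Unlike Cybb, Stx8 kept its call with the doubted array included, at -2.71 (adjusted p = 1.02e-12), and it was the only gene called in that fit. Stx8 and Cybb were the only 2 of all called genes that were called in each of the 9 fits that left out 1 vehicle array. Those fits also lacked the doubted array, which was left out for its Cybb level, so nothing is read from them for Cybb.

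Both genes stayed apart by genotype with Ang II as well. Cybb averaged 6.71 ± 0.33 (SD, n = 4) in KO cells given Ang II and 8.77 ± 0.43 (SD, n = 4) in WT cells given Ang II. Stx8 averaged 3.40 ± 0.26 (SD, n = 4) in KO cells given Ang II and 5.96 ± 0.27 (SD, n = 4) in WT cells given Ang II. In the other two WT groups, given Ang II with 2-hydroxybenzylamine or with hydralazine and hydrochlorothiazide (Hyd/HCTZ), Stx8 averaged 6.14 ± 0.07 (SD, n = 4) and 6.78 ± 0.12 (SD, n = 6). In the Ang II arrays alone the KO minus WT difference was -2.06 for Cybb (adjusted p = 2.88e-06) and -2.55 for Stx8 (adjusted p = 1.48e-12).

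**Figure D1:**
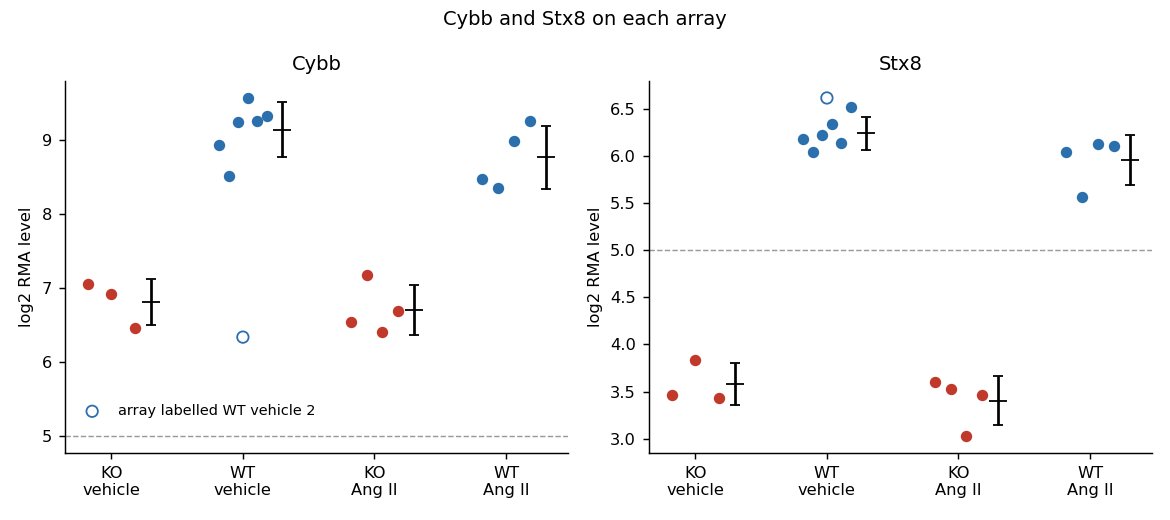
Log2 RMA level of Cybb and of Stx8 on each array by group, for KO and WT cells given vehicle or Ang II, with a filled point per array, an open point for the array left out, and a bar at the mean ± SD of each group. The dashed line is the level filter of 5. The KO arrays sit at 6.41 to 7.18 for Cybb and 3.02 to 3.84 for Stx8, below all WT arrays except, for Cybb, the array labelled WT vehicle replicate 2.

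The 250 bases before the RefSeq start of each gene (GRCm38.p6) are shown because these 2 genes had the smallest p of all tested genes. Cybb lies on the minus strand (chrX:9469325-9469574) and Stx8 on the plus strand (chr11:67966208-67966457), and both are written 5′ to 3′ along the gene, with any match to a searched motif in capitals.
Cybb: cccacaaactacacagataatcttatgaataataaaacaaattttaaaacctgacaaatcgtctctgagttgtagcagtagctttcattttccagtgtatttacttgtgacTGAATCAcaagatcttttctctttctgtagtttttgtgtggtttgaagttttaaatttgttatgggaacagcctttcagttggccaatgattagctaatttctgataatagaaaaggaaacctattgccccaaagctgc
Stx8: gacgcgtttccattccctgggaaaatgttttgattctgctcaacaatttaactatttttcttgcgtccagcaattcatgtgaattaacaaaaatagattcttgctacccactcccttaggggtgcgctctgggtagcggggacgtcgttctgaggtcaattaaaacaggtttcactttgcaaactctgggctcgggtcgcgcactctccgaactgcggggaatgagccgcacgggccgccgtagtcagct
Both strands were searched for 3 motifs, an NF-κB motif (GGGA, any base, then TTTCC), the AP-1 letters TGANTCA and the CRE letters TGACGTCA. The Cybb window held 1 AP-1 match, at 139 to 133 bases before the start, and the Stx8 window held no match. AP-1 letters occur in 6.85% of the 27025 RefSeq promoter windows of this length, so a match describes the letters alone.

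Among all tested genes, 68 were called, which is 0.651% of 10452. Of these, 66 were lower in KO cells (0.631%) and 2 were higher (0.0191%), while 1794 genes had an unadjusted p below 0.05. The 66 falls ran from -3.32 to -0.58 with a median of -0.87. The whole table leaned the same way, with a median difference of -0.10 over all tested genes and 64.2% of them below 0. On 60 of the 66 called falls every KO array lay below every WT array, against 5.48% of all tested genes. The falls were called from these same arrays, so that separation was largely set by the calling and nothing is read from it. After quantile normalization the median of all genes moved by 0.11 to 0.01, and 28 genes were called, 8 higher and 20 lower. With the doubted array included, 1 gene was called (0.00957%) and 657 had an unadjusted p below 0.05. The count also rested on single arrays, with 3 calls without KO replicate 3 or WT replicate 4, 11 without KO replicate 1, 232 without WT replicate 1 and 280 without WT replicate 3.

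**Figure D2:**
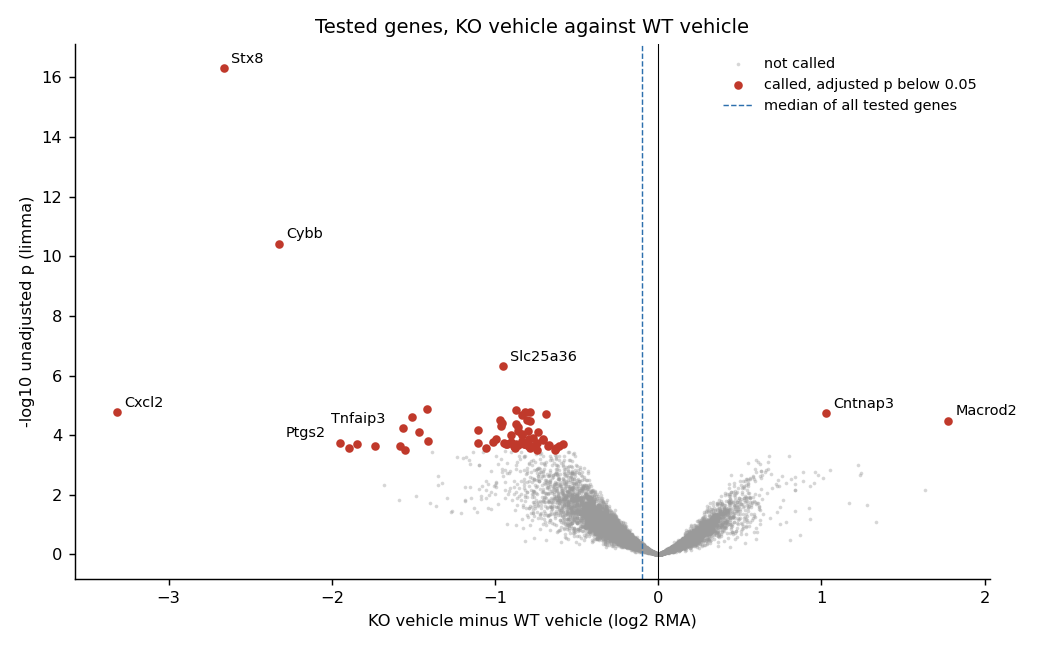
KO minus WT difference of log2 RMA level in vehicle arrays (horizontal axis) against −log10 of the unadjusted limma p (vertical axis) for each of the 10452 tested genes. The 68 called genes are red, the dashed line marks the median of all tested genes at -0.10, and Cxcl2, Stx8 and Cybb lie farthest to the left.

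The called falls are grouped here by known role, after their values were seen, and the first are genes that innate cells induce in inflammation. The widest difference of all belonged to Cxcl2, a chemokine that attracts neutrophils. It read 4.20, 4.30 and 3.65 on KO arrays, against 5.25 to 9.27 (median 7.53) on WT arrays. WT replicates 6 and 7 were the lowest of the WT arrays, at 5.25 and 5.50, and still lay above the highest KO array. Cxcl2 fell by 3.32 (SE 0.64, adjusted p = 0.0194), and with 5 in place of the KO mean the fold was 5.16. Tnfaip3, which encodes the NF-κB inhibitor A20, read 6.46, 6.70 and 6.38 on KO arrays, against 7.45 to 8.43 (median 8.24) on WT arrays. The 3 KO arrays lay close together below all WT arrays, and Tnfaip3 fell by 1.57 (SE 0.33, adjusted p = 0.0285). Ptgs2, the inducible cyclooxygenase that starts prostaglandin synthesis, read 5.25, 5.19 and 5.56 on KO arrays, against 6.15 to 8.40 (median 7.23) on WT arrays. Again WT replicates 6 and 7 were nearest to KO without overlap, and Ptgs2 fell by 1.95 (SE 0.45, adjusted p = 0.0415). Cxcl2 lost its call without KO replicate 1, KO replicate 3 or WT replicate 4, and Tnfaip3 and Ptgs2 without any 1 KO array or without WT replicate 4 or 5.

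Receptors and signalling genes of activated leukocytes came next. Cd69, an early activation marker that holds cells in tissue, read 4.85, 6.00 and 5.18 on KO arrays, against 6.75, 7.25, 7.99, 8.17, 6.63 and 6.64 on WT arrays. The groups did not overlap, and Cd69 fell by 1.90 (SE 0.46, adjusted p = 0.0435). Rgs1, which damps chemokine receptor signalling, read 8.49, 8.69 and 7.82 on KO arrays, against 9.73 to 10.49 (median 10.21) on WT arrays. Its WT arrays were tight and all stood above the highest KO array, and Rgs1 fell by 1.84 (SE 0.43, adjusted p = 0.0415). Ccrl2, a non-signalling receptor that binds chemerin, read 5.52, 5.35 and 4.92 on KO arrays, against 6.18 to 7.90 (median 6.55) on WT arrays. It fell by 1.55 (SE 0.38, adjusted p = 0.047) with no overlap. Gpr183, the oxysterol receptor that places dendritic cells in the spleen, read 6.93, 7.08 and 7.14 on KO arrays, against 7.75 to 8.51 (median 7.90) on WT arrays. The KO arrays were tight and below all WT arrays, and Gpr183 fell by 1.00 (SE 0.23, adjusted p = 0.0415). Cd69, Rgs1 and Ccrl2 kept their call in 2 of the 9 fits that left out 1 vehicle array, those without WT replicate 1 or 3, and Gpr183 in 3, those and the fit without WT replicate 6.

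Cd14 differed from these in that its groups overlapped. This co-receptor for lipopolysaccharide read 5.37, 5.17 and 4.11 on KO arrays, against 5.30 to 7.15 (median 6.63) on WT arrays. WT replicate 1, at 5.30, lay among the KO arrays, and Cd14 fell by 1.58 on average (SE 0.38, adjusted p = 0.0415), a call kept in 2 of 9 such fits, those without WT replicate 1 or 3. Slc25a36, a mitochondrial carrier of pyrimidine nucleotides that was picked out after its values were seen, had the smallest p after Stx8 and Cybb. It read 7.30, 7.31 and 6.95 on KO arrays, against 7.68 to 8.40 on WT arrays, and fell by 0.95 (adjusted p = 0.00169) with no overlap.

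Coch, known for the extracellular matrix protein cochlin, was among the falls. It read 5.08, 5.02 and 4.87 on KO arrays, against 5.24 to 7.90 (median 7.02) on WT arrays. The WT arrays were spread widely, with replicates 6 and 7 at 5.24 and 5.52 just above the KO arrays and the other four well above. Coch fell by 1.74 (SE 0.41, adjusted p = 0.0415), a call lost without any 1 KO array or without WT replicate 4 or 5. Gdap10 fell by 1.51, Ifrd1, an interferon-related developmental regulator, by 1.47, and Tent5c, a poly(A) polymerase, by 1.10, each with no overlap between groups. Serpinb9, a granzyme B inhibitor, fell by 1.10, Akap11, an anchor of protein kinase A, by 1.01, Gimap3, a GTPase of lymphocytes, by 0.97, Stk17b, a serine/threonine kinase, by 0.77 and Insyn2b by 0.96, also with no overlap. Sh3pxd2a, the scaffold protein Tks5 of podosomes, fell by 1.41 and the glutathione transferase Gstp3 by 1.05, each with overlapping groups. The adjusted p of these genes lay between 0.0212 and 0.0435. Of the 68 called genes, 17 averaged below 5 in KO cells, where RMA compresses differences. Serpinb9 averaged 4.09 in KO and 5.19 in WT arrays, and Gstp3 4.01 and 5.06. Their falls thus rest on levels near or below the filter of 5 in both groups.

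Only 2 genes were called higher in KO cells. Macrod2, which encodes an ADP-ribose hydrolase, read 7.19, 8.21 and 7.56 on KO arrays, against 5.30 to 6.59 (median 5.92) on WT arrays. All KO arrays lay above all WT arrays, and Macrod2 rose by 1.78 (SE 0.36, adjusted p = 0.0216). Cntnap3, a neurexin-family adhesion protein, read 5.44, 5.44 and 5.87 on KO arrays, against 4.02 to 5.02 (median 4.69) on WT arrays. The KO arrays again all lay above the WT arrays, and Cntnap3 rose by 1.03 (SE 0.20, adjusted p = 0.0194). Macrod2 lost its call without KO replicate 2 or 3 or WT replicate 4 or 5, and Cntnap3 without KO replicate 1 or 3 or WT replicate 4. Of all tested genes, 1.48% had every KO array above every WT array. The next smallest p values in this direction were those of Ppp1r3e (0.68), Gatd3a (0.60) and Ssh3 (0.61), which missed the threshold with adjusted p between 0.057 and 0.0691. In the Ang II arrays Macrod2 differed by 0.04 (adjusted p = 0.981) and Cntnap3 by 0.27 (adjusted p = 0.658).

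**Figure D3:**
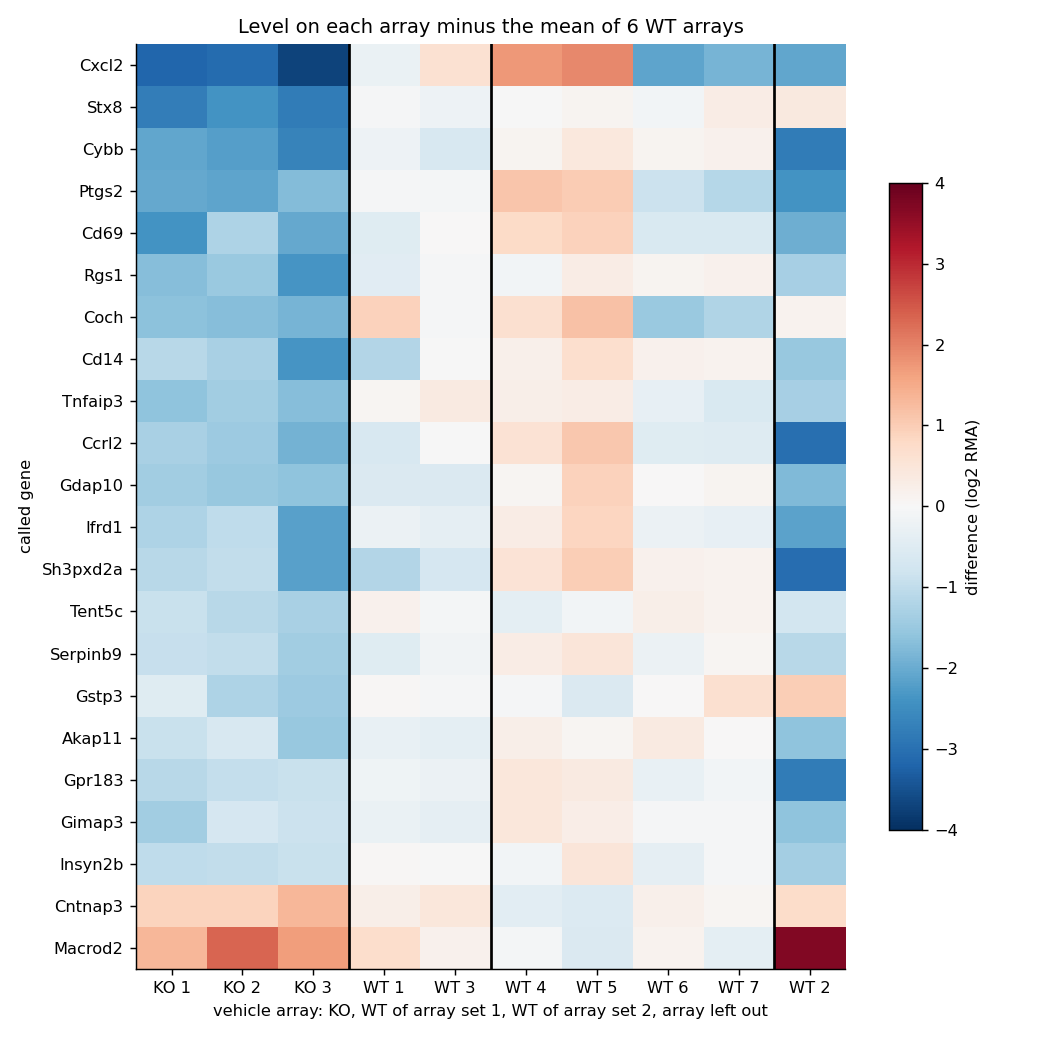
Log2 RMA level on each vehicle array minus the mean of the 6 WT arrays, as colour, for the 20 largest called falls that are not predicted genes and both called rises. Columns are the KO arrays, WT arrays of set 1, WT arrays of set 2 and the array left out. The KO arrays lie below 0 for the falls and above 0 for Macrod2 and Cntnap3, and WT replicates 6 and 7 lie lowest among WT for Cxcl2, Ptgs2, Tnfaip3, Cd69 and Coch.

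The windows before the starts of Cxcl2, Tnfaip3 and Coch are shown because these 3 genes, with Stx8 and Cybb, were the 5 called in the comparison of all vehicle arrays, with array set as a block and within set 1. Cxcl2 (chr5:90903649-90903898) and Coch (chr12:51593091-51593340) lie on the plus strand and Tnfaip3 (chr10:19015411-19015660) on the minus strand of GRCm38.p6. Each is written 5′ to 3′ along the gene, with matches in capitals.
Cxcl2: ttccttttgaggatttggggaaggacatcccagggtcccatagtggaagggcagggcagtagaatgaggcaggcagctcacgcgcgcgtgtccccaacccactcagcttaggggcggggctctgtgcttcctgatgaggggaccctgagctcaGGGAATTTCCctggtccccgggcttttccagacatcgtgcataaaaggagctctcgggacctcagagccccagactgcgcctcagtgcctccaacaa
Tnfaip3: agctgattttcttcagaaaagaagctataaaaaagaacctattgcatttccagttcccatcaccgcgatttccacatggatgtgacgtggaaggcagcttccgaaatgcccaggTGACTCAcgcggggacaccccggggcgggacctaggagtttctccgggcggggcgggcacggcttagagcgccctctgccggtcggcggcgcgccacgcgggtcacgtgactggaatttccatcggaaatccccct
Coch: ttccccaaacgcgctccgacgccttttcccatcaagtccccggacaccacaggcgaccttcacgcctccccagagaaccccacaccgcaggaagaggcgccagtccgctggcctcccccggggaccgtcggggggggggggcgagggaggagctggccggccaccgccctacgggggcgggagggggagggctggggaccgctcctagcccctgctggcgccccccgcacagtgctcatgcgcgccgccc
The capitals mark an NF-κB match in Cxcl2, 97 to 88 bases before the start, and an AP-1 match in Tnfaip3, 136 to 130 bases before it, while the Coch window held none of the 3 motifs. NF-κB letters stood in 0.344% of the 27025 promoter windows and in 0.369% of the 8408 windows of tested genes. Of the 66 genes called lower, 51 were matched to a window, of which 1 held the NF-κB letters (1.96%), 2 the AP-1 letters (3.92%) and 1 the CRE letters (1.96%). AP-1 letters stood in 4.15% and CRE letters in 2.75% of the windows of tested genes.

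None of the tested partners of NOX2 was called. Of the 7 tested genes of the phagocyte oxidase, Cybb was called and the other 6 were not. Cyba, which encodes the p22phox partner, differed by 0.33 (adjusted p = 0.459). The cytosolic subunits Ncf1 (p47phox) and Ncf4 (p40phox) differed by 0.13 and -0.01, the GTPases Rac1 and Rac2 by 0.03 and -0.37, and Cybc1, a chaperone of the complex, by -0.13. Their adjusted p values were 0.72, 0.985, 0.932, 0.388 and 0.78 in that order. Among other sources of reactive oxygen, Xdh, the xanthine oxidoreductase, read 7.30, 6.69 and 6.62 on KO arrays, against 5.63 to 6.47 (median 6.09) on WT arrays. Its groups did not overlap, but the difference of 0.76 was not called (adjusted p = 0.187).

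The partners of Stx8 gave no call either. None of 13 tested SNAREs and tethers of the endosomal pathway was called by limma, and 2 had an unadjusted p below 0.05, with a list median of -0.17. Vti1b differed by -0.29, Stx7 by -0.03 and Vamp8 by -0.01, which with syntaxin 8 form the late endosomal SNARE bundle. Vamp7, a SNARE of lysosome fusion, differed by -0.53 (adjusted p = 0.231).

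Neighbouring genes were read to see whether the low levels of Cybb and Stx8 extended along their chromosomes. Of the 16 nearest tested genes, 4 on each side of each gene, limma called 0, and 3 had an unadjusted p below 0.05. In gene order the nearest on the 2 sides lay 31 and 4 genes from Cybb, and 8 and 6 genes from Stx8. The farthest lay 53 and 48 genes from Cybb, and 40 and 13 genes from Stx8. Genes directly beside Cybb and Stx8 were thus not among them. Those with such a p were on the chromosome of Stx8: Gas7 at 0.44, Ndel1 at -0.50 and Map2k4 at -0.58. Gas7 was higher on every KO array, at 5.43, 5.43 and 5.45 on KO arrays against 4.71 to 5.38 (median 4.98) on WT arrays, without being called (adjusted p = 0.132). Chromosome X held 5 of the 68 called genes (7.35%), beside 2.67% of all tested genes. The 5 include Cybb, the targeted gene. Chromosomes were assigned by Entrez identifier. The probe set identifiers of Nyx and Armcx3 fall among those of genes on chromosome 9 and on chromosomes 7 and 8. Where their probes map was not tested, so the share on X is uncertain. Nnt, a mitochondrial transhydrogenase known to be mutated in C57BL/6J mice, read 5.35, 5.35 and 5.41 on KO arrays, against 5.04 to 5.57 (median 5.31) on WT arrays. Its ranges overlapped, with a difference of 0.06 (adjusted p = 0.87).

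Across all 27 arrays, Stx8 was the gene whose pattern was most like that of Cybb, with a Pearson r of 0.969. Zfr, a zinc finger RNA-binding protein, followed at 0.909, Jmjd1c, of the histone demethylase family, at 0.903, Stk17b at 0.903 and Gpr183 at 0.897. Arrays of 2 genotypes and several array sets enter these values. Within the 20 WT arrays alone, r with Cybb was 0.68 for Stx8, 0.88 for Zfr, 0.81 for Jmjd1c, 0.74 for Stk17b and 0.69 for Gpr183.

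Gene lists of functions and cell types were read by how many members were called, beside the 0.651% of all tested genes. The 33 lists named 498 genes, of which 401 were tested and 5 were called: Cybb, Cxcl2, Tnfaip3, Ptgs2 and Cd14. Immediate early and heat shock genes had the lowest median of the 17 function lists. Among the marker lists, T cells and red pulp macrophages had medians close to it, at -0.58 and -0.59. None of the 25 tested members was called by limma, 15 had an unadjusted p below 0.05, 22 lay below 0 and 15 were lower on every KO array than on any WT array, a separation seen in 5.48% of all tested genes. The list median was -0.58, -0.39 after quantile normalization and -0.46 within set 1, beside -0.10, 0.01 and 0.03 for all tested genes. Fosb, Egr1 and Atf3 were picked out after their values were seen. Fosb, a partner of Jun in AP-1, read 7.35, 7.17 and 7.78 on KO arrays, against 8.20 to 9.46 (median 9.34) on WT arrays. Every KO array lay below every WT array, with a difference of -1.59 (adjusted p = 0.187). Egr1, a zinc finger factor, differed by -1.04 (adjusted p = 0.12), the stress factor Atf3 by -1.27 (adjusted p = 0.266) and Nr4a1, an orphan nuclear receptor, by -1.03 (adjusted p = 0.24), all with KO arrays below all WT arrays. WT replicates 6 and 7 were the lowest WT arrays for Fosb, Egr1, Atf3 and Nr4a1. Hspa1a, a heat shock protein, differed the other way at 1.05 (adjusted p = 0.0874).

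Cytokine and chemokine lists held 1 call each. Of 16 tested cytokine and NF-κB genes, Tnfaip3 was called lower and 13 lay below 0, with a median of -0.45. Rel, the NF-κB subunit c-Rel, read 8.74, 8.60 and 8.76 on KO arrays, against 9.12 to 9.82 (median 9.57) on WT arrays. All KO arrays were below all WT arrays, yet the difference of -0.82 missed the threshold (adjusted p = 0.057). Of 17 tested chemokines and receptors, Cxcl2 was called lower and 13 lay below 0, with a median of -0.36. Cxcl9, which attracts T cells, differed by -0.74 (adjusted p = 0.125) and Ccl4 by -0.57 (adjusted p = 0.216), with overlapping groups.

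Antigen presentation and oxidative stress genes gave no call in the KO cells. None of 12 MHC class II genes was called by limma and 1 had an unadjusted p below 0.05, with a median of -0.17. H2-Aa, an MHC class II chain, differed by -0.17 and Cd74 by -0.21. For MHC class I presentation the counts were 0 called and 6 unadjusted of 14, with a median of -0.20. Of 19 antioxidant and Nrf2 genes 0 were called and 2 had an unadjusted p below 0.05, with a median of -0.14, and Txn1, which encodes thioredoxin, differed by -0.62 (adjusted p = 0.116). Costimulation genes had 0 called and 0 unadjusted of 11, interferon-stimulated genes 0 called and 3 unadjusted of 18, and oxidative phosphorylation genes 0 called and 1 unadjusted of 26. Unfolded protein response genes had 14 of 15 below 0 with 0 called and 5 unadjusted, and a median of -0.30. The medians of the oxidase, costimulation, Toll-like receptor, oxidative phosphorylation, cell cycle and renin-angiotensin lists were below 0 as deposited and above 0 after quantile normalization. Array sets turned more of them: within set 1 the median was 0.12 for MHC class II (3 of 12 below 0), 0.01 for MHC class I and 0.12 for antioxidant genes, and it was 0.16, -0.02 and 0.10 for the same lists with array set as a block. The lists of SNARE partners and of eicosanoid genes and the 6 lists just named for quantile normalization also had medians above 0 within set 1.

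**Figure D4:**
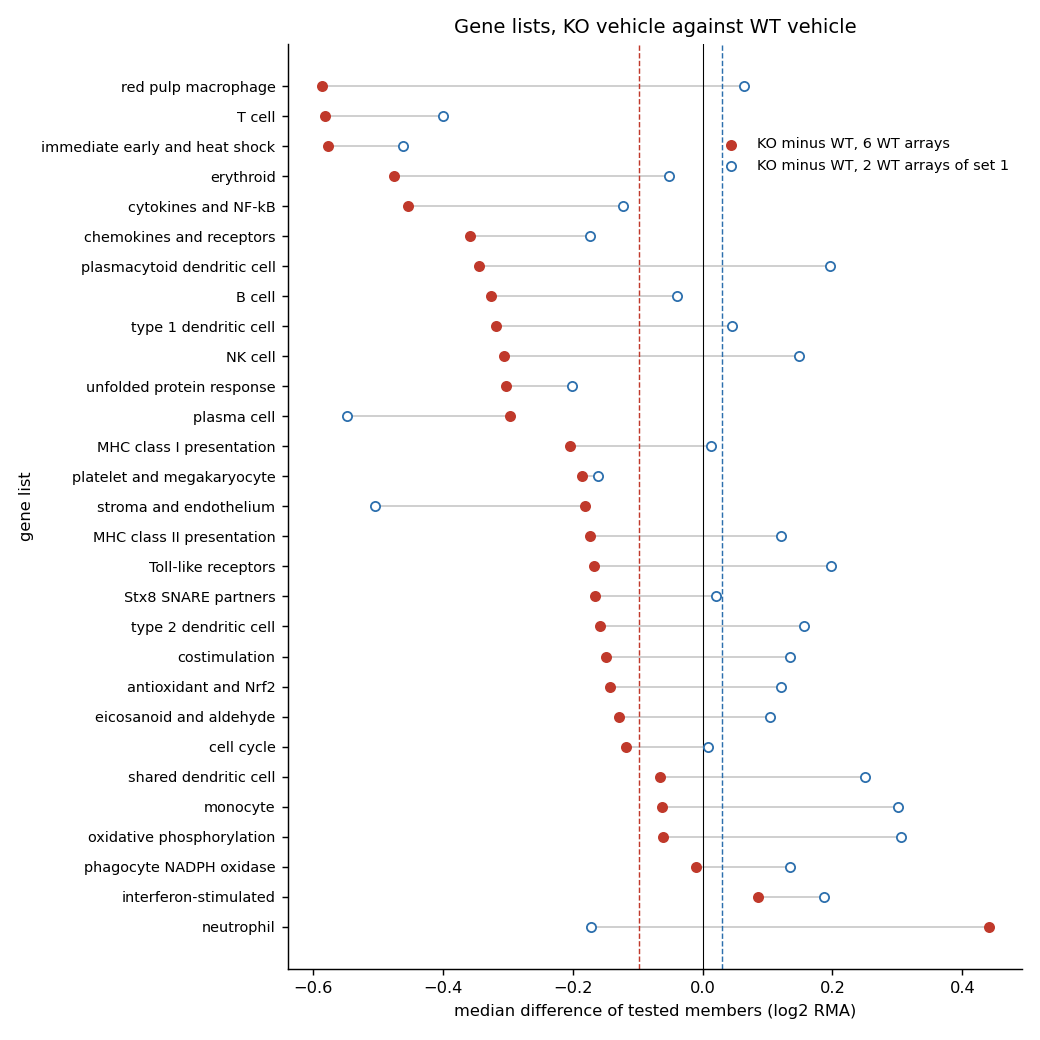
Median KO minus WT difference (log2) of the tested members of each gene list with at least 5 tested members in vehicle arrays. Filled points use the 6 WT arrays and open points the 2 WT arrays of set 1, with a dashed line of the same colour at the median of all tested genes. The immediate early list lies at -0.58 over all arrays and -0.46 within set 1.

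Markers of other spleen cells differed beside these genes. Limma called no T cell marker, but 11 of 11 lay below 0 and 6 had an unadjusted p below 0.05. The mean level of the list was 5.51 to 5.98 on the KO arrays and 6.06 to 6.56 on the WT arrays, without overlap. Its median was -0.58 over all arrays and -0.40 within set 1, where 10 of 11 lay below 0. Cd3e, a chain of the T cell receptor complex, differed by -0.96 (adjusted p = 0.0866) and Il7r, the interleukin 7 receptor, by -1.10 (adjusted p = 0.0747). Cd69, Rgs1, Gpr183 and Gimap3 are also expressed by lymphocytes, and the part of T cell RNA in their falls was not tested. Plasma cell markers also separated the groups, with 0 called and 5 of 6 below 0, and a mean level of 6.11 to 6.20 on the KO arrays and 6.35 to 6.84 on the WT arrays. Their median was -0.30 over all arrays and -0.55 within set 1, and Jchain, the joining chain of secreted antibodies, differed by -1.06 (adjusted p = 0.142) with every KO array below every WT array. The part of plasma cell RNA in the falls was not tested. NK cell markers had 11 of 12 below 0, with a median of -0.30 (0.15 within set 1) and a mean level of 6.41 to 6.72 on the KO arrays and 6.26 to 7.52 on the WT arrays. Erythroid markers had 6 of 9 below 0, with a median of -0.48 (-0.05 within set 1) and a mean level of 4.86 to 5.71 on the KO arrays and 5.15 to 5.84 on the WT arrays. Red pulp macrophage markers had 15 of 16 members below 0, with a mean level of 6.65 to 7.69 on the KO arrays and 6.88 to 8.36 on the WT arrays. Their median was -0.59 over all arrays and 0.06 within set 1. Neutrophil markers had a median of 0.44 and -0.17 within set 1, with mean levels of 6.11 to 8.37 on the KO arrays and 5.31 to 7.95 on the WT arrays. Monocyte markers, the list that holds Cd14, had a mean level of 6.93 to 8.01 on the KO arrays and 7.18 to 7.97 on the WT arrays.

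Stromal and platelet markers varied strongly among the WT arrays. Igfbp7, a gene of vessel and stromal cells, read 6.06, 6.10 and 6.00 on KO arrays, against 5.27 to 8.92 (median 7.64) on WT arrays. WT replicates 6 and 7 read 5.94 and 5.27, below the KO arrays, while the other four WT arrays lay far above. Ppbp, a platelet chemokine, read 4.71, 4.90 and 5.48 on KO arrays, against 4.43 to 8.37 (median 6.79) on WT arrays, with the same 2 WT arrays at 4.43 and 4.61. Cxcl2, Ptgs2, Tnfaip3, Cd69, Rel, Coch and Nfkbid were lowest among WT on the same 2 arrays, as were the immediate early genes Fosb, Egr1, Atf3, Junb, Nr4a1, Nr4a2 and Nr4a3. The mean level of the 17 tested stromal markers was 5.13 to 5.23 on the KO arrays and 4.93 to 5.93 on the WT arrays. That of the 7 platelet markers was 4.68 to 4.89 on the KO arrays and 4.69 to 5.85 on the WT arrays. On the WT arrays of set 1 these means were 5.69 to 5.93 for stroma and 5.10 to 5.25 for platelets, above every KO array. The medians were -0.18 for stroma and -0.19 for platelets over all arrays, and -0.50 and -0.16 within set 1. The part of stromal or platelet RNA in the falls was not tested.

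Within set 1 both genotypes came from 1 array set. This comparison uses the same 3 KO arrays and 2 of the 6 WT arrays by which the 68 genes were called, so their sign there was largely set by that choice and nothing is read from it. All 66 called falls lay below 0 and 54 had an unadjusted p below 0.05, while 46% of all tested genes lay below 0 and 991 of 10452 had such a p. Limma called 26 genes within set 1 (0.249%), 22 lower and 4 higher. Of the 68 genes called over all vehicle arrays, 7 were called again: Stx8, Cybb, Cxcl2, Tnfaip3, Ptgs2, Rgs1 and Coch. With array set as a block over 27 arrays 41 genes were called (0.392%), 15 lower and 26 higher, of which 9 were among the 68. The split between higher and lower therefore depended on the array sets, with 63.4% of calls higher under the block and 2.94% over all vehicle arrays. Within set 1 the Ang II arrays, 4 KO and 2 WT, gave 37 calls (0.354%).

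Called in both treatments within set 1 were 17 genes, each lower in KO cells, which is 65.4% of the 26 vehicle calls and 45.9% of the 37 Ang II calls. The 2 comparisons share no array but share 1 estimate of the spread, and each rests on 2 WT arrays. Cxcl2 differed by -3.48 with vehicle (adjusted p = 1.99e-05) and -2.67 with Ang II (adjusted p = 0.000119). Coch differed by -2.18 with vehicle (adjusted p = 0.000777) and -2.58 with Ang II (adjusted p = 9.3e-05). Alongside the 7 genes above, the 17 held immediate early genes, immune regulators and genes of stroma, platelets and plasma, named here after their values were seen. The immediate early members were Fosb, Egr1, Atf3 and Nr4a2, and with vehicle limma called 5 of the 25 tested genes of that list within set 1, all lower. Fosb differed by -1.96 with vehicle (adjusted p = 0.000951) and -2.23 with Ang II (adjusted p = 0.000119). Over all Ang II arrays limma called none of Fosb, Egr1, Atf3 and Nr4a2 (adjusted p = 0.502, 0.344, 0.42 and 0.136). WT Ang II replicate 3, which is not in set 1, lay below every KO Ang II array for Fosb (5.85), Egr1 (5.46) and Atf3 (5.78). For Nr4a2 it read 5.48, within the KO range. The other WT Ang II arrays lay above every KO Ang II array for these genes. Ctla4, an inhibitory receptor of T cells, differed by -1.89 with vehicle and -1.61 with Ang II, and Nfkbid, an atypical IκB protein, by -1.33 with vehicle and -1.34 with Ang II. Igfbp7 differed by -1.58 with vehicle and -2.12 with Ang II, the matrix proteoglycan Bgn by -1.56 and -1.66, Ppbp by -1.76 and -1.92, and the plasma glutathione peroxidase Gpx3 by -1.52 and -1.61.

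The Ang II arrays gave a second view of the genotype over all array sets. Limma called 13 genes there (0.124%), 4 higher and 9 lower. Of these 13, 5 were also called with vehicle, all lower: Stx8, Cybb, Gimap3, Gpr183 and Coch. Gpr183 read 6.25, 6.23, 7.06 and 6.33 on the KO Ang II arrays, against 7.48, 7.71, 8.17 and 8.45 on the WT Ang II arrays. The KO arrays were all below the WT arrays, with replicate 3 apart from the other KO arrays, and the difference was -1.49 (adjusted p = 0.00117). Coch read 5.10, 4.57, 4.97 and 5.00 on the KO Ang II arrays, against 7.58, 7.39, 7.26 and 6.65 on the WT Ang II arrays. The groups were far apart, with a difference of -2.31 (adjusted p = 0.0101). Gimap3 differed by -1.01 (adjusted p = 0.0269).

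Of the inflammatory genes that fell with vehicle, Cxcl2, Tnfaip3, Ptgs2 and Cd69 were not called with Ang II. Cxcl2 differed by -2.03 there (adjusted p = 0.185), Tnfaip3 by -1.10 (adjusted p = 0.155), Ptgs2 by -1.49 (adjusted p = 0.157) and Cd69 by -0.94 (adjusted p = 0.448). Cxcl2 read 4.72, 4.58, 5.08 and 4.91 on the KO Ang II arrays, against 7.82, 7.17, 5.72 and 6.69 on the WT Ang II arrays. These groups did not overlap, and WT replicate 3 was the lowest WT array. That array read 6.54 for Tnfaip3 and 5.43 for Ptgs2, within or below the range of the KO Ang II arrays, while the other WT Ang II arrays read 8.23 to 8.30 for Tnfaip3 and 7.06 to 7.81 for Ptgs2. It is not in set 1, where Cxcl2, Tnfaip3 and Ptgs2 were called lower with Ang II (adjusted p = 0.000119, 0.000869 and 0.000253), with WT Ang II replicates 1 and 2 alone on the WT side. Of the 66 vehicle falls, 62 lay below 0 with Ang II, beside 55.6% of all tested genes, and 12 had all 4 KO arrays below all 4 WT arrays, beside 1.94% of all tested genes. Their median difference with Ang II was -0.39, against -0.87 with vehicle. Within set 1, 53 of the 66 lay below 0 with Ang II, beside 46.2% of all tested genes, with a median of -0.21. The test of the difference between the 2 genotype effects, an interaction contrast in limma, called 0 genes, with 544 at an unadjusted p below 0.05. For Cxcl2 the 2 effects differed by -1.29 (adjusted p = 0.938), for Stx8 by -0.10 (adjusted p = 0.99) and for Cd14 by -1.21 (adjusted p = 0.938), so no gene was shown to differ between treatments.

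**Figure D5:**
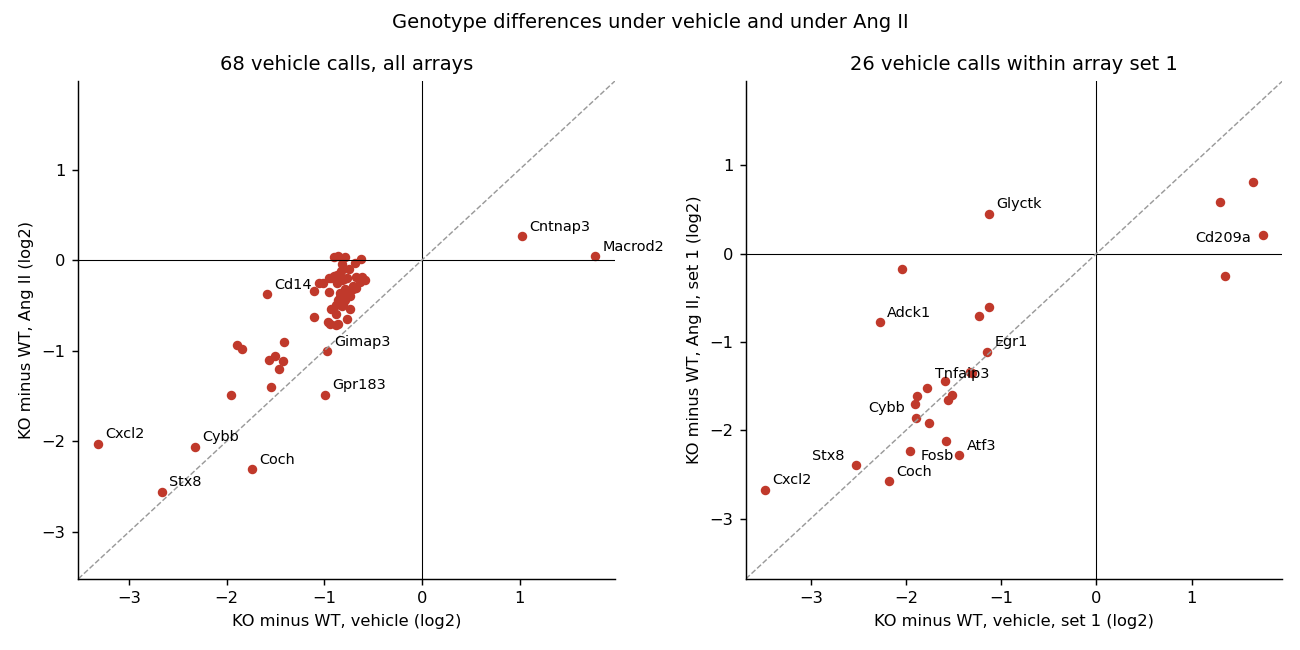
KO minus WT difference (log2) with vehicle (horizontal axis) and with Ang II (vertical axis) for the 68 vehicle calls over all arrays (left) and the 26 vehicle calls within set 1 (right), with a diagonal where both are equal. On the left Stx8 and Cybb lie at -2.66 and -2.32 with vehicle and at -2.55 and -2.06 with Ang II, while Cxcl2 lies at -3.32 and -2.03.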

How the data were processed

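The authors hybridised biotin-labelled cRNA from Trizol-extracted total RNA to Affymetrix arrays, 1 per biological replicate. Deposited values are log2 levels of 35556 probe sets on 28 arrays, for which the submitters' processing notes name RMA and Partek 6.6. RMA settings and the probe annotation are not given in the sources used here, and no detection calls were used, so the number of arrays limits the precision. Arrays were grouped by their titles and descriptions, and columns of no sample used numbered 0. Nothing says whether replicates were separate mice, so p-values measure the spread between these samples.

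Probe sets were named through the platform annotation, in which 21789 carried 1 symbol, 1621 several and 12146 none. The probe set with the highest mean was kept for each of 19938 genes, and 10452 passed 5 on 3 or more arrays. Entrez identifiers matched 10425 of these to RefSeq. For differences limma 3.58.1 was run in R 4.3.3 on 27 arrays, with a mean for each of 6 groups and a shared spread, then eBayes, two-sided, with Benjamini-Hochberg adjustment over all tested genes. The script was tested on simulated data. Whether replicate numbers paired the samples was checked by the correlation of their deviations from group means. Array sets were parted at the 2 widest gaps of the first component of the control probe sets, with no scan date used.

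Members and lists were chosen with earlier results of these data known. Named genes were the oxidase and SNARE genes and Nnt, the 20 largest called rises and falls (with the 5 smallest p where fewer than 5 were called), called members and the 3 smallest p of each list, 4 neighbours on each side of Cybb and Stx8, and the 5 genes most like Cybb. Predicted genes and multigene families entered counts only. Alternatives were other filters, array weights, other normalizations, eBayes options, all probe sets, blocks, array subsets, a fold threshold of 1.5 and leaving out arrays.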

Additional observations from a re-analysis of the deposited data

Results flagged for a closer look

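Among 57 groups of levels checked, 4 had an array set apart from the rest of its group by a gap that is wide for the group's range, and chance gives about 1 in 20 such groups. Cybb on the array labelled WT vehicle replicate 2 read 6.34, against 8.51 to 9.57 on the other WT vehicle arrays, a gap of 0.674 of the whole range. That array was left out of the results above for this reason. Gpr183, the oxysterol receptor, read 7.06 on KO Ang II replicate 3, against 6.23 to 6.33 on the other KO Ang II arrays, a gap of 0.870 of the range. Stx8 on WT Ang II replicate 2 read 5.56, against 6.04 to 6.13 on the other WT Ang II arrays, a gap of 0.841, and stayed above every KO array. Vamp8 on WT vehicle replicate 3 read 8.47, against 8.84 to 9.04 on the other WT vehicle arrays, a gap of 0.642.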

How the results depend on the processing

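No called result changed direction, and the 68 called genes kept their sign under every alternative in which they were tested. Of 124 named genes that were not called, 14 changed sign with the array labelled WT vehicle replicate 2, 29 with array set as a block and 28 within set 1. The count of 68 calls (2 higher, 66 lower) was far less stable than the signs. Adding that array left 1 call (0 higher, 1 lower), 5 Ang II calls in place of 13 and 0 list calls in place of 5, and put Cybb at -1.92. Without a level filter 20 genes were called higher, with a filter above 7 100 were called lower, and with all single-symbol probe sets 4 were called higher. Array weights gave 1715 calls (222 higher, 1493 lower) and the vehicle arrays alone 8, with 5 lower. Quantile normalization gave 28 calls (8 higher, 20 lower; 28.6% higher against 2.94%), 85 Ang II calls and 2 list calls. A common array median gave 29 calls, 27 lower, and testing against the median difference gave 6, of which 4 were lower. The replicate block gave 5 calls (0 higher, 5 lower) and 2 list calls. Same-numbered arrays correlated at -0.187 for replicate 1 and 0.321 for replicate 3. The best other match gave 0.217 and 0.236. These values point different ways, so they do not settle whether the numbers pair the samples. Array set as a block gave 41 calls (26 higher, 15 lower) and 82 Ang II calls, and set 1 alone 26 (4 higher, 22 lower), 37 Ang II calls and 13 list calls. Leaving out the Hyd/HCTZ arrays, an alternative added after seeing the data, left 3 calls (0 higher, 3 lower). Leaving out 1 vehicle array gave 3 to 280 calls (0 to 27 higher, 3 to 253 lower): 11, 23 and 3 without KO replicates 1, 2 and 3, and 232, 280, 3, 16, 38 and 29 without WT replicates 1, 3, 4, 5, 6 and 7. Stx8 and Cybb were called in all 9 of these, which also lacked the array labelled WT vehicle replicate 2, left out for its Cybb level. The interaction was counted with the added array, after quantile normalization, with each block and within set 1, and gave 0 calls in each. It was not counted under the other alternatives. Causes of these changes were not tested. Signal over background limits genes below 5, and 3 KO arrays limit all differences.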

Other observations

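Of the 4 genes called higher in KO cells within array set 1, Cd209a was the 1 that stood in a dendritic cell list, and the others were Snx24, Zfp87 and Zfp729b. It was the 1 call among 12 tested type 2 dendritic cell markers, and it was picked after its values were seen. Within set 1, 5 of these 12 markers lay below 0, with a list median of 0.16. Over all vehicle arrays 8 of the 12 lay below 0, with a median of -0.16. Cd209a, a C-type lectin of type 2 dendritic cells, read 5.64 to 7.04 on the 3 KO arrays, against 4.66 and 4.33 on the 2 WT arrays of set 1. The difference was 1.76 within set 1 (limma adjusted p = 0.0454) and 0.63 over all arrays (adjusted p = 0.388), and the 4 WT arrays of set 2 read 5.54 to 6.76. With Ang II the difference over all arrays was -0.22 (adjusted p = 0.871).

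Among the Ang II calls that vehicle did not share, Serping1, the complement C1 inhibitor, differed by -1.92 with Ang II (adjusted p = 0.0442) and -1.09 with vehicle (adjusted p = 0.17). Clu, which encodes clusterin, differed by -1.32 with Ang II (adjusted p = 0.02) and -0.96 with vehicle (adjusted p = 0.0626). Ddit4, an inhibitor of mTOR signalling, differed by 1.21 with Ang II (adjusted p = 0.0442) and 0.39 with vehicle (adjusted p = 0.438). The interaction contrast called none of these genes.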
